A study of Marchantia polymorpha with 12 samples.

Results

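The genes described here were chosen by a rule on the deposited values: their values were lower with UV-B light in gemmalings of the Mphy5 mutant of the liverwort Marchantia polymorpha, and not lower by as much in the wild type Tak-1. In the rule, 1 is added to each group mean of 3 libraries. A gene was kept if its Mphy5 mean with UV-B was at most 0.65 times that without, and if the Tak-1 ratio was at least 0.85 and below 1.5. It also needed a value of at least 30 in Mphy5 without UV-B, no overlap between the Mphy5 libraries with and without UV-B, and a ratio of Mphy5 to Tak-1 without UV-B between 0.25 and 4. Genes numbered Mp4g14110 to Mp4g14210 were left out by the rule, which removed 0 genes that met its other parts. The rule found 103 of 18255 genes, all among the 18100 on chromosomes 1 to 8. Of these 103, 20 have a symbol in the name table and 83 are known here by identifier only.

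The 4 groups were Mphy5 with 3 h of UV-B, Mphy5 without UV-B, Tak-1 with 3 h of UV-B and Tak-1 without UV-B, with 3 libraries each. All were 7-day gemmalings, the young plants that grow from the asexual propagules of the liverwort. They had grown under white light of 50 µmol m-2 s-1, to which UV-B of 1.5 µmol m-2 s-1 was added. The labels give the mutant's genotype as Mphy5-1 and both lines as male. They name no other allele or agent, and the mutant is thus 1 line. Nothing states that the libraries of a group came from separate cultures, so a p-value here measures only the spread between these samples, which may be technical.

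HY5 is a bZIP transcription factor best known from Arabidopsis. There it accumulates when the UV-B photoreceptor UVR8 holds back the ubiquitin ligase COP1, and it activates genes of flavonoid synthesis and UV protection. Genes that fall under UV-B in flowering plants are often those of growth, such as cell wall and auxin genes. Whole gemmalings were used, so fewer cells of a type and less RNA per cell cannot be told apart.

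Values are normalized reads, that is, reads scaled by a size factor for each library, and values of a group are given in the order of replicates 1 to 3. Recovered totals were 44787979 to 67532310 reads per library. The 92 male V chromosome genes gave sums of 139777 to 162984 normalized reads per library, and the 63 female U chromosome genes gave 79 to 171 recovered reads. Of 5 antheridium and sperm markers found in the file, MpPRM and MpBHLH20 were at 0 to 5.5 in all libraries. The others were present in all, MpDUO1 at 19.5 to 57.0, MpC2H2-3 at 166 to 303 and MpCEN1 at 2274 to 2983. Oil body and meristem genes were also present in all libraries. Among archegonium and egg markers, MpRKD was at 6421 to 8590, MpBELL1 at 18.8 to 71.8 and MpR2R3-MYB1 at 0 to 0.81. The gemma cup markers MpGCAM1 and MpKAR were at 12.9 to 158 and 1888 to 3279. MpBZIP1 (Mp1g16800), taken here as the MpHY5 gene from published nomenclature without a test of that identity, had 16018, 16815 and 15534 normalized reads in Mphy5 with UV-B and 1592, 1522 and 1521 in Mphy5 without UV-B. Its Tak-1 values were 5999, 6354 and 5745 with UV-B and 1418, 1319 and 1281 without UV-B. The labels do not say which part of the gene the mutation changes, so its transcript does not check the genotype.

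A gene is said to be called when it passed a Benjamini-Hochberg adjusted p of 0.05 over 15999 genes in limma on log2(value + 1). The rule used the means of all 4 groups, so the counts of calls below describe the selection and carry no test of it. In the Mphy5 response 92 of the 103 were called lower and 11 were not called, where 15.9% of all tested genes were called lower and 15.9% higher. Their median log2 fold change was -0.77, against -0.01 over all tested genes. The ratio with UV-B to without in Mphy5 had a median of 0.58 and ranged between 0.341 and 0.649.

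The rule does not ask that a member is without a call in Tak-1. In Tak-1 15 of the 103 (14.6%) were also called lower and 0 higher. Over all tested genes the share called lower was the same, 14.6%, and 14.6% were called higher. Nothing is read from this count, since the rule used the Tak-1 means. In other fits 0 to 4 members were called higher in Tak-1. That number was 1 with edgeR and with DESeq2 on recovered whole reads, and 4 both with only the Tak-1 groups fitted and without replicate 1 of Mphy5 with UV-B. These 15 lie near the limit of the rule, with Tak-1 ratios of 0.851 to 0.884, and include MpBHLH15, MpCYP824A1, MpLEA-like8 and MpCUS. Of the other members, 77 were called lower in Mphy5 and not called in Tak-1. The count of 15 was 8 without replicate 3 of Tak-1 without UV-B, and also 8 without replicate 3 of Tak-1 with UV-B. It was 9 without replicate 1 of Tak-1 with UV-B.

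Whether the responses of the lines differ is a separate comparison, the difference of the UV-B responses. In it 52 of the 103 were called, all with the more negative response in Mphy5, where 2.54% of all tested genes were called negative and 1.93% positive. All 15 members that were also lower in Tak-1 were among these 52, as were 37 of the 77 others. For the 51 that were not called, a miss does not show that the lines responded alike. Among 34 members with a mean under 100 normalized reads 1 difference was called. Among 18 with a mean of 100 to 1000 it was 12, and among 51 with a higher mean it was 39. The share called among all tested genes at each level was not computed, and a cause was not tested. Members of high mean were missed too, such as Mp5g04590, with 7607 normalized reads in Mphy5 without UV-B.

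**Figure D1:**
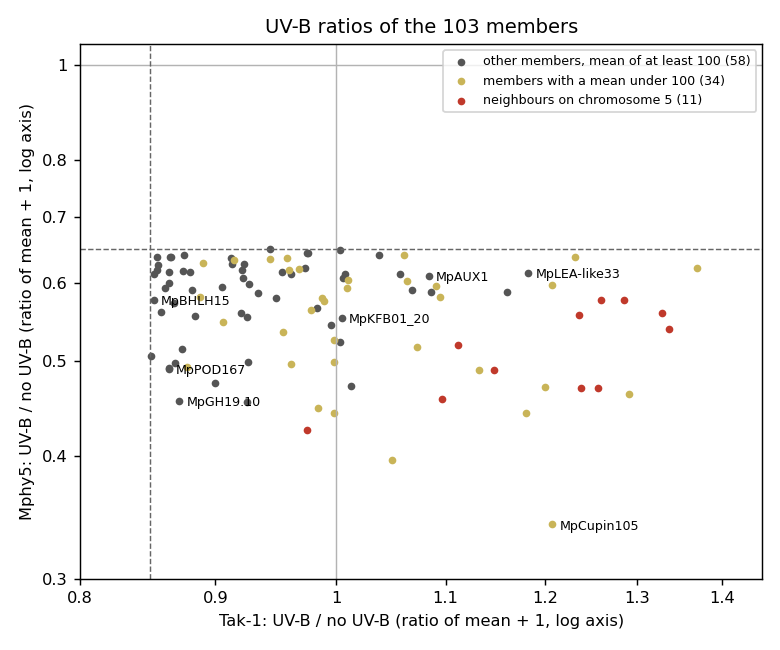
UV-B ratio of each of the 103 members in Mphy5 (vertical) against Tak-1 (horizontal), as group mean + 1 with UV-B over group mean + 1 without, on log axes. Dashed lines mark the limits of 0.65 and 0.85 in the rule. The 11 neighbours on chromosome 5 (red) reach Tak-1 ratios of 0.975 to 1.336, and members with a mean under 100 (yellow) include the lowest Mphy5 ratio, 0.341.

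Wall and secreted enzymes open the description of the members with a symbol. MpGH16.42 belongs to a glycoside hydrolase family that holds wall-modifying glucanases and xyloglucan transglycosylases. It had 23319.8, 32934 and 31710.3 normalized reads in Mphy5 with UV-B, against 47000.0, 48201 and 48325 in Mphy5 without UV-B. MpGH16.42 in Tak-1 had 42323, 42669.7 and 42102 with UV-B, against 48192, 48627 and 52249.9 without UV-B. Replicate 1 of Mphy5 with UV-B was the lowest of the 12 libraries, and the Mphy5 ratio was 0.613 against 0.853 in Tak-1. In Tak-1 too, all libraries with UV-B lay below all without. The difference of responses was not called for this gene.

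MpExpansin32, of the wall-loosening expansins, had 1288, 1286 and 1437 normalized reads in Mphy5 with UV-B, against 2289, 2158 and 2166 in Mphy5 without UV-B. MpExpansin32 in Tak-1 had 3034, 3006 and 2697 with UV-B, against 2575, 3170.0 and 2938 without UV-B. The Tak-1 groups overlapped, and Mphy5 was below Tak-1 in all its libraries, with and without UV-B. MpGH19.10, of the family that holds plant chitinases, had 64.4, 104 and 103 normalized reads in Mphy5 with UV-B, against 193, 211 and 195 in Mphy5 without UV-B. MpGH19.10 in Tak-1 had 113, 91.1 and 159 with UV-B, against 159, 109 and 149 without UV-B. For this gene Mphy5 without UV-B stood above all other libraries, and the Tak-1 groups overlapped.

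The wall and glycoside hydrolase lists held no further member. Of 107 tested expansin and wall enzyme genes, 30 were called lower and 12 higher in Mphy5, and 31 lower and 9 higher in Tak-1. Beside this list and those below, 15.9% of all tested genes were called lower and 15.9% higher in Mphy5. In Tak-1 the shares were 14.6% and 14.6%. MpGH16.41, a wall enzyme gene outside the rule, fell in both lines, to a mean of 1332 ± 154.5 in Mphy5 with UV-B against 2991 ± 78.1 without, and to 1784 ± 106 in Tak-1 with UV-B against 3233 ± 178 without (SD, n = 3 each). MpEXL9 rose in both, to 5446 ± 284 in Mphy5 with UV-B against 898 ± 26.1 without, and to 5838 ± 386 in Tak-1 with UV-B against 929.85 ± 141 without. Of 122 glycoside hydrolase genes, 35 were called lower and 9 higher in Mphy5, and 34 lower and 9 higher in Tak-1.

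Enzymes that oxidise phenols and other small molecules gave 6 members. MpPOD167 encodes a peroxidase, an enzyme that oxidises phenols with hydrogen peroxide. It had 2590.5, 3590.4 and 3353 normalized reads in Mphy5 with UV-B, against 6696, 6497 and 6239.9 in Mphy5 without UV-B. MpPOD167 in Tak-1 had 6402, 5379.9 and 6083 with UV-B, against 7446, 6049 and 7175 without UV-B. All Mphy5 libraries with UV-B were below all Tak-1 libraries, and Mphy5 without UV-B overlapped Tak-1. MpPOD23, the other peroxidase, had 915, 1119 and 1142 normalized reads in Mphy5 with UV-B, against 1639, 1683 and 1819 in Mphy5 without UV-B. MpPOD23 in Tak-1 had 1422, 1402 and 1433 with UV-B, against 1491, 1366 and 1765 without UV-B. Its Tak-1 groups overlapped, and the Mphy5 ratio was 0.618. Of 150 tested peroxidase genes, 15 were called lower and 5 higher in Mphy5, and 21 lower and 9 higher in Tak-1. MpPOD7, no member, fell to 3142 ± 250 in Mphy5 with UV-B against 4633 ± 72.4 without, and to 2772 ± 72.5 in Tak-1 with UV-B against 3989.6 ± 121 without (SD, n = 3 each).

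MpPPO37 is a polyphenol oxidase, a copper enzyme that turns phenols into quinones. It had 4385, 4535 and 4178 normalized reads in Mphy5 with UV-B, against 7390.1, 7313 and 6865 in Mphy5 without UV-B. MpPPO37 in Tak-1 had 12801, 11273 and 11876 with UV-B, against 13786, 12124 and 13067 without UV-B. The mutant was below Tak-1 without UV-B already, at 0.553 times its level, and at 0.364 times with UV-B. MpPPO63, read at far lower counts, had 23.6, 26.7 and 26.3 normalized reads in Mphy5 with UV-B, against 53.1, 37.5 and 38.3 in Mphy5 without UV-B. MpPPO63 in Tak-1 had 90.7, 66.6 and 48.1 with UV-B, against 81.6, 56.0 and 65.7 without UV-B. It was not called in the Mphy5 response. MpPPO37 was the 1 gene called lower in Mphy5 among 43 tested polyphenol oxidase genes, and MpPPO20, which is no member, the 1 called higher. In Tak-1, 3 of the 43 were called lower and 0 higher.

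MpCYP824A1 is a cytochrome P450, a haem enzyme that adds oxygen to small molecules. It had 2187, 2022 and 2114 normalized reads in Mphy5 with UV-B, against 4523, 3915 and 3857 in Mphy5 without UV-B. MpCYP824A1 in Tak-1 had 4847, 4963 and 4651 with UV-B, against 5166, 5967 and 5414 without UV-B. The 4 groups did not overlap one another, and it was called lower in both lines and in the difference. MpCYP707A is named after the enzymes that inactivate abscisic acid in flowering plants. It had 38.6, 29.9 and 44.2 normalized reads in Mphy5 with UV-B, against 48.8, 78.0 and 52.9 in Mphy5 without UV-B. MpCYP707A in Tak-1 had 75.6, 68.9 and 66.9 with UV-B, against 94.5, 67.1 and 69.8 without UV-B. It was not called in either line. Of 108 tested P450 genes, 22 were called lower and 12 higher in Mphy5, and 21 lower and 12 higher in Tak-1.

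MpAUX1 (Mp1g29330) encodes a carrier of the kind that brings auxin, a growth hormone, into the cell. It had 3433, 3366 and 3437 normalized reads in Mphy5 with UV-B, against 5818, 5468 and 5499 in Mphy5 without UV-B. MpAUX1 in Tak-1 had 6277, 6553 and 6121 with UV-B, against 5598, 6036 and 5842 without UV-B. All Tak-1 libraries with UV-B were above all without, a response that was not called, while all Mphy5 libraries with UV-B were the lowest of the 12. The Mphy5 ratio was 0.610 and the Tak-1 ratio 1.08. Of 50 tested auxin genes it was the 1 member. MpPIN1, an auxin exporter, fell in both lines, to 5015 ± 70.5 in Mphy5 with UV-B against 10152 ± 319 without, and to 6362 ± 187 in Tak-1 with UV-B against 8394 ± 317 without (SD, n = 3 each). MpTIR1, an auxin receptor, also fell in both, to 2990 ± 50.1 in Mphy5 with UV-B against 4786 ± 218 without, and to 3053 ± 28.4 in Tak-1 with UV-B against 4429.9 ± 131 without. In all, 14 auxin genes were called lower and 6 higher in Mphy5, and 12 lower and 7 higher in Tak-1.

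Regulators were few among the members. MpBHLH15, a transcription factor of the basic helix-loop-helix family, had 5782, 5961 and 6333 normalized reads in Mphy5 with UV-B, against 10835, 10541 and 9974 in Mphy5 without UV-B. MpBHLH15 in Tak-1 had 8510.3, 8933 and 8124 with UV-B, against 9454, 10349 and 10178 without UV-B. It was called lower in both lines, and the Tak-1 ratio of 0.853 lies just inside the limit. Of 41 tested genes of this family, 13 were called lower and 9 higher in Mphy5, and 13 lower and 10 higher in Tak-1.

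MpKFB01_20 is a Kelch repeat F-box protein gene. In Arabidopsis, proteins of this name mark the entry enzyme of phenylpropanoid synthesis for breakdown. It had 1715, 2047 and 2126 normalized reads in Mphy5 with UV-B, against 4054, 3190.1 and 3415 in Mphy5 without UV-B. MpKFB01_20 in Tak-1 had 3350.2, 3640.3 and 3342 with UV-B, against 3416, 3469 and 3396 without UV-B. Without UV-B the lines overlapped, and with UV-B all Mphy5 libraries were below all of Tak-1. The Tak-1 ratio was 1.00, and the gene was called in the difference.

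MpB3-8, of the plant B3 transcription factors, had 60.1, 93.1 and 96.7 normalized reads in Mphy5 with UV-B, against 234, 139.7 and 130.3 in Mphy5 without UV-B. MpB3-8 in Tak-1 had 90.7, 50.2 and 72.1 with UV-B, against 70.6, 77.1 and 65.7 without UV-B. Here Mphy5 without UV-B was above all other libraries, with replicate 1 the highest, and Mphy5 with UV-B overlapped Tak-1. MpMAPKKK11, of the kinases that start MAP kinase cascades, had 61.1, 58.3 and 54.9 normalized reads in Mphy5 with UV-B, against 113, 97.5 and 63.5 in Mphy5 without UV-B. MpMAPKKK11 in Tak-1 had 20.9, 65.4 and 46.0 with UV-B, against 41.3, 38.0 and 45.2 without UV-B. Replicate 1 of Tak-1 with UV-B was the lowest library, and the gene was not called in either line. MpNBS-LRR20, of the family of intracellular immune receptors, had 114, 118 and 179 normalized reads in Mphy5 with UV-B, against 231, 237 and 179.9 in Mphy5 without UV-B. MpNBS-LRR20 in Tak-1 had 335, 319 and 344 with UV-B, against 388, 357 and 349 without UV-B. Mphy5 was below Tak-1 in all its libraries, and its highest library with UV-B was close to its lowest without.

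The lists of these families held no further member. Of 24 tested MAP kinase kinase kinase genes, 7 were called lower and 1 higher in Mphy5, and 8 lower and 1 higher in Tak-1. Of 21 NBS-LRR genes, 10 were called lower and 1 higher in Mphy5, and 7 lower and 0 higher in Tak-1. Over all tested genes 15.9% were called lower in Mphy5 and 14.6% in Tak-1. MpNBS-LRR8, no member, fell to 1208 ± 89.0 in Mphy5 with UV-B against 1824 ± 103 without, and to 1364 ± 141 in Tak-1 with UV-B against 1959.5 ± 65 without (SD, n = 3 each). The other B3 genes tested, MpB3-5 and MpB3-2, were not called in either line.

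The remaining named members were LEA-like, cupin and lipid transfer protein genes and MpCUS. MpLEA-like33, named after the late embryogenesis abundant proteins that accumulate in drying tissue, had 3664, 5281 and 5296 normalized reads in Mphy5 with UV-B, against 7969, 7808 and 7402 in Mphy5 without UV-B. MpLEA-like33 in Tak-1 had 7669.9, 8905 and 8165 with UV-B, against 6524, 7074 and 7330.1 without UV-B. All Tak-1 libraries with UV-B were above all without, and replicate 1 of Mphy5 with UV-B was the lowest library. MpLEA-like8 had 1387, 1520.4 and 1491 normalized reads in Mphy5 with UV-B, against 2346, 2426 and 2381 in Mphy5 without UV-B. MpLEA-like8 in Tak-1 had 1649.5, 1719.7 and 1806 with UV-B, against 1917, 1876 and 2087 without UV-B. In Mphy5 it was above Tak-1 without UV-B and below it with UV-B, without overlap. Most called LEA-like genes went the other way: of 54 tested, 16 were called higher and 8 lower in Mphy5, and 11 higher and 5 lower in Tak-1.

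MpCupin105, of a family of barrel-shaped proteins that includes germins, had the lowest Mphy5 ratio of all members, 0.341. It had 10.7, 6.48 and 10.8 normalized reads in Mphy5 with UV-B, against 30.4, 26.5 and 30.9 in Mphy5 without UV-B. MpCupin105 in Tak-1 had 22.1, 26.9 and 19.9 with UV-B, against 19.3, 30.03 and 7.19 without UV-B. The Tak-1 libraries without UV-B overlapped every other group, and no difference of responses was called. MpLTP-like72, of the lipid transfer proteins, had 37.5, 25.9 and 16.7 normalized reads in Mphy5 with UV-B, against 66.2, 51.5 and 56.2 in Mphy5 without UV-B. MpLTP-like72 in Tak-1 had 50.0, 23.4 and 50.2 with UV-B, against 29.4, 32.0 and 41.1 without UV-B. Mphy5 without UV-B was above all other libraries. MpCUS had 4257, 4161 and 4389 normalized reads in Mphy5 with UV-B, against 7479, 6621 and 6677 in Mphy5 without UV-B. MpCUS in Tak-1 had 9879, 10322 and 9213 with UV-B, against 10417, 12101 and 11514 without UV-B. Mphy5 was below Tak-1 in both conditions, and the gene was called lower in both lines.

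Of 59 tested cupin genes, 6 were called lower and 7 higher in Mphy5, and 2 lower and 5 higher in Tak-1. Of 15 lipid transfer protein genes, 5 were called lower and 0 higher in Mphy5, and 2 lower and 0 higher in Tak-1.

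**Figure D2:**
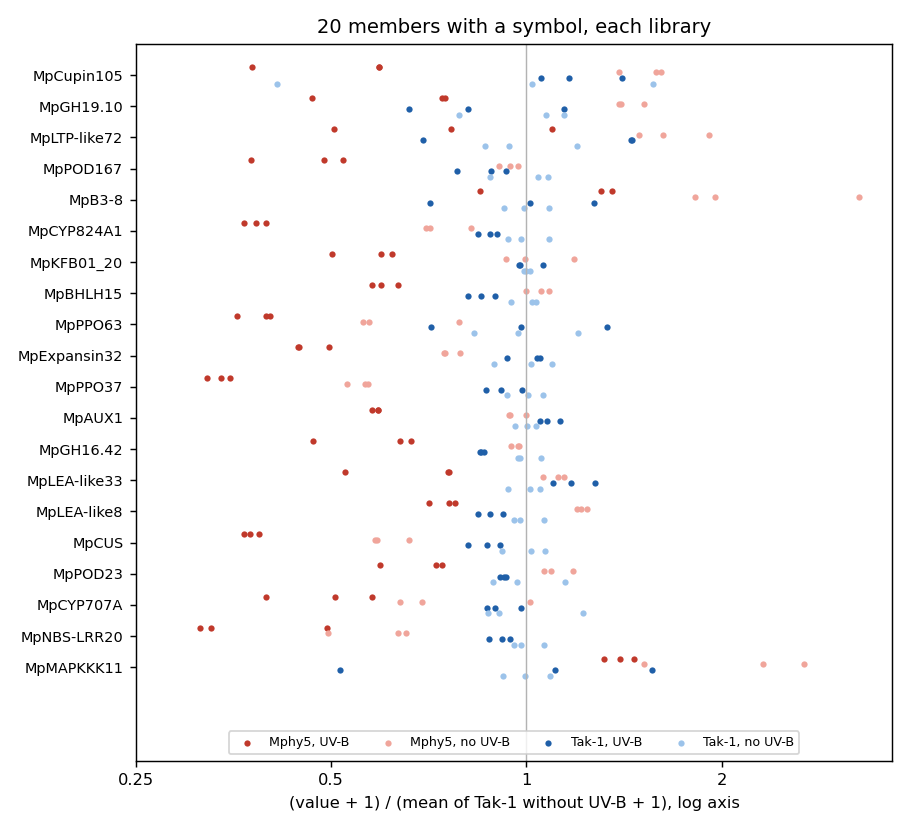
Each library of the 20 members with a symbol, as (value + 1) over (mean of Tak-1 without UV-B + 1) on a log axis, ordered by the Mphy5 UV-B ratio. Dark red points (Mphy5 with UV-B) lie left of light red points (Mphy5 without UV-B) in every row, as the rule requires; where the pair lies relative to the Tak-1 points (blue) differs between genes.

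Several members without a symbol had low counts and low Mphy5 ratios. Mp5g23550 had 11.8, 31.6 and 19.11 normalized reads in Mphy5 with UV-B, against 56.4, 57.0 and 48.9 in Mphy5 without UV-B. Mp5g23550 in Tak-1 had 40.7, 50.2 and 43.9 with UV-B, against 26.6, 39.0 and 62.6 without UV-B. With UV-B the mutant was below all Tak-1 libraries of that condition, and without UV-B the lines overlapped. Mp3g19370 had 20.4, 34.0 and 25.1 normalized reads in Mphy5 with UV-B, against 46.6, 73.3 and 63.5 in Mphy5 without UV-B. Its Tak-1 libraries overlapped each other and all lay above those of Mphy5, between 74.1 and 109. Mp8g18700, Mp8g14450 and Mp6g11380 had Mphy5 ratios of 0.442, 0.448 and 0.462, from group means of at most 84.96 normalized reads. Of the 34 members with a mean under 100, 23 were called lower in Mphy5. All 18 with a mean of 100 to 1000 and all 51 with a mean of 1000 or more were called lower. The rule itself asked for a fall in Mphy5, and the share of all tested genes called at each level was not computed.

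Members read at higher counts had a smaller spread by the median, though not each of them. The coefficient of variation over the Mphy5 libraries with UV-B had a median of 21.5% in members with a mean under 100. It was 11.3% at 100 to 1000 and 10.8% above. Mp5g04590, of high counts, had a wide spread, at 3717 ± 1233 normalized reads in Mphy5 with UV-B (SD, n = 3). Mp5g03550 had 10574, 15916 and 16419 normalized reads in Mphy5 with UV-B, against 34280.4, 30904 and 25241 in Mphy5 without UV-B. Mp5g03550 in Tak-1 had 11854, 13364 and 12526 with UV-B, against 13357, 13080.5 and 15502 without UV-B. Without UV-B the mutant stood above Tak-1 without overlap, at 2.16 times its level, and with UV-B the lines overlapped. Mp1g15580, at the limit of the rule, had 14792, 18625 and 16626 normalized reads in Mphy5 with UV-B, against 25354, 27229 and 24699.9 in Mphy5 without UV-B. Mp1g15580 in Tak-1 had 49954, 48439 and 48805 with UV-B, against 48114, 48705 and 49958 without UV-B. Its Tak-1 ratio was 1.00, and Mphy5 was below Tak-1 in both conditions. Mp4g07180 had 134, 196 and 174 normalized reads in Mphy5 with UV-B, against 413, 351 and 309 in Mphy5 without UV-B. Its values in Tak-1 were 288, 275 and 334 with UV-B, against 289, 311 and 285 without UV-B, so that the groups without UV-B overlapped and Mphy5 with UV-B was lowest. Mp5g21770 had 567, 809.6 and 713 normalized reads in Mphy5 with UV-B, against 2103, 1412 and 1091 in Mphy5 without UV-B, with 1 high library, replicate 1 of Mphy5 without UV-B. Its values in Tak-1 were 1067, 1055 and 1352 with UV-B, against 1509, 1077 and 1168 without UV-B. Mp5g13700 had the highest Tak-1 ratio of the members, 1.37, with 95.3, 109 and 146 with UV-B, against 93.5, 71.1 and 90.3 without UV-B, a response that was not called.

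On chromosome 5 a block of neighbouring genes shared the pattern. The members Mp5g04550, Mp5g04560, Mp5g04570, Mp5g04580, Mp5g04590, Mp5g04600, Mp5g04610, Mp5g04635, Mp5g04640, Mp5g04650 and Mp5g04660 are 11 of 12 consecutive genes of the file. The gene between them, Mp5g04630, and the next one before them, Mp5g04540, failed only the part of the rule that asks for a Tak-1 ratio below 1.5, with ratios of 1.689 and 1.543. None of the 13 has a symbol, and position was not part of the rule. Chromosome 5 held 26 of the 103 members, 1.28% of its 2024 tested genes, against 1.04% on chromosome 8 and 0.35% to 0.64% on the others. Without the block, 15 members remain on chromosome 5.

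The 11 genes summed to 20539, 36884 and 32990 normalized reads in Mphy5 with UV-B, against 53680, 65281 and 55593 in Mphy5 without UV-B. In Tak-1 they summed to 82770, 78277 and 75691 with UV-B, against 71823, 54147 and 70053 without UV-B. Mphy5 with UV-B was below all other libraries, and Tak-1 with UV-B above them. The ratio of the mean sums was 0.518 in Mphy5 and 1.208 in Tak-1.

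The largest of them by reads was Mp5g04640, with 6703, 9794 and 8853 normalized reads in Mphy5 with UV-B, against 13535, 15788 and 14703 in Mphy5 without UV-B. Mp5g04640 in Tak-1 had 25746, 23476 and 22708 with UV-B, against 21154, 15146 and 20806 without UV-B. Its neighbour Mp5g04650 had 1931, 3503 and 3270.2 normalized reads in Mphy5 with UV-B, against 5596, 6936 and 6014 in Mphy5 without UV-B. In Tak-1 its values were 11394, 11157 and 10322 with UV-B, against 9893, 6657 and 9630.5 without UV-B, so that with UV-B the mutant was at 0.265 times the Tak-1 mean. At the other end of the block, Mp5g04550 had 340.0, 838 and 729.8 normalized reads in Mphy5 with UV-B, against 1301, 1519 and 1251 in Mphy5 without UV-B. It had 1172, 875 and 1013 with UV-B, against 948, 781 and 742 without UV-B in Tak-1, and here the mutant stood above Tak-1 without UV-B, at 1.65 times its level. The ratio of Mphy5 to Tak-1 without UV-B lay between 1.057 and 1.646 in the first 8 members of the block and between 0.639 and 0.771 in the last 3. With UV-B it lay between 0.265 and 0.624 in all 11.

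Mp5g04540, directly before the block, had a Mphy5 ratio of 0.646 beside its Tak-1 ratio of 1.543. Further out, Mp5g04530 and Mp5g04690 did not share the pattern. Mp5g04530 had 2891, 2602 and 2434 normalized reads in Mphy5 with UV-B, against 1074, 979 and 1045 without, and 2197, 2501 and 2145 in Tak-1 with UV-B, against 1159, 1250.2 and 1116 without. Mp5g04690 had 2834, 3063 and 2943 normalized reads in Mphy5 with UV-B, against 1895, 1799 and 1830.3 without, and 2883, 2942 and 2621 in Tak-1 with UV-B, against 2139, 2272 and 2115 without. Both had more reads with UV-B than without in every library of each line. Mp5g04670, between the block and Mp5g04690, was at or near 0 in all libraries.

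The libraries of a group also moved together over the block. Replicate 1 of Mphy5 with UV-B was the lowest of its group in 11 of 11 genes and replicate 2 the highest in 11 of 11. Replicate 2 was the highest of Mphy5 without UV-B in 11 of 11, and the lowest of Tak-1 without UV-B in 10 of 11. The same 4 shares over 12480 tested genes with a mean of at least 30 were 37.1%, 36.6%, 26.7% and 32.1%. All 11 were called lower in the Mphy5 response, 0 in Tak-1, and 3 in the difference. Over all tested genes 15.9% were called lower in Mphy5, 14.6% lower in Tak-1 and 2.54% negative in the difference. These counts, too, follow from the rule. Without replicate 1 of Mphy5 with UV-B the difference was called for 10 of the 11. In that fit 316 of all tested genes were called negative and 244 positive. The summed ratio in Mphy5 was then 0.60. The ratios of single genes were then 0.497 to 0.684, against 0.425 to 0.577 with it. Whether these genes, or members of the enzyme families above, are close copies of others that share reads was not tested, and the sources used here do not say how reads matching several genes were counted.

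**Figure D3:**
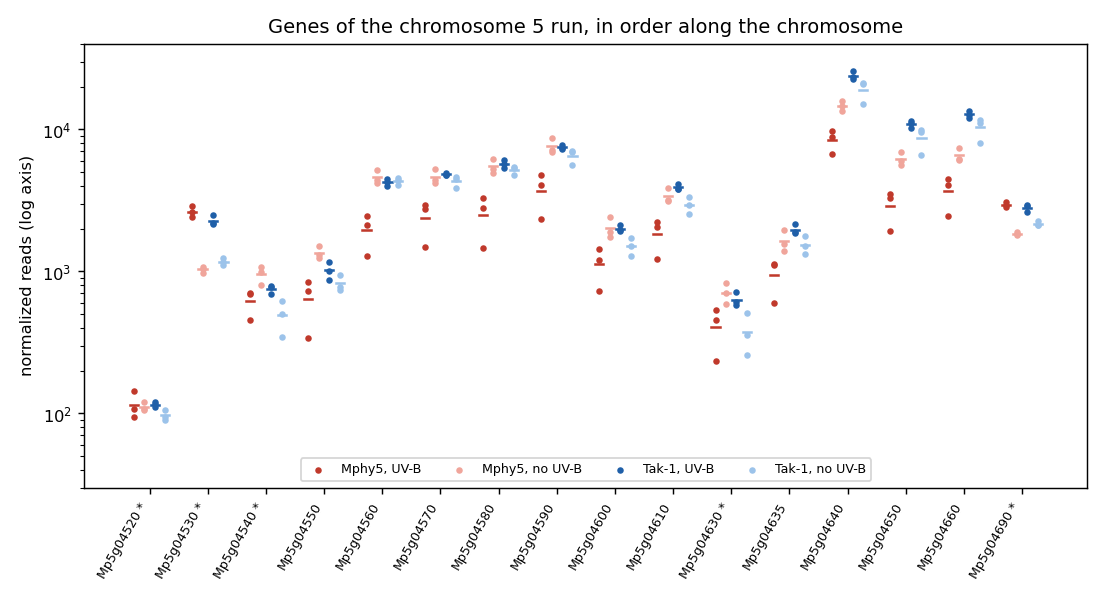
Normalized reads (log axis) of the chromosome 5 block and the genes beside it, in identifier order along the chromosome, with 1 point per library and a bar at each group mean. Genes marked * are not members, and neighbours with a mean under 50 in Tak-1 without UV-B are not drawn. In all 11 members Mphy5 with UV-B (dark red) has the lowest group mean, with replicate 1 the lowest point, while at Mp5g04530 both lines are higher with UV-B.

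Replicate 1 of Mphy5 with UV-B stood low in the other members too. It was the lowest of its group in 56 of 92 (60.9%), where it was lowest in 37.1% of 12480 tested genes with a mean of at least 30. Relative to the mean of Mphy5 without UV-B, the median of these 92 was 0.549 in replicate 1, 0.594 in replicate 2 and 0.606 in replicate 3. Without this library the rule again found 103 genes, 81 of them members, 9 of them in the block, and 81 of the 103 members were called lower in Mphy5.

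**Figure D4:**
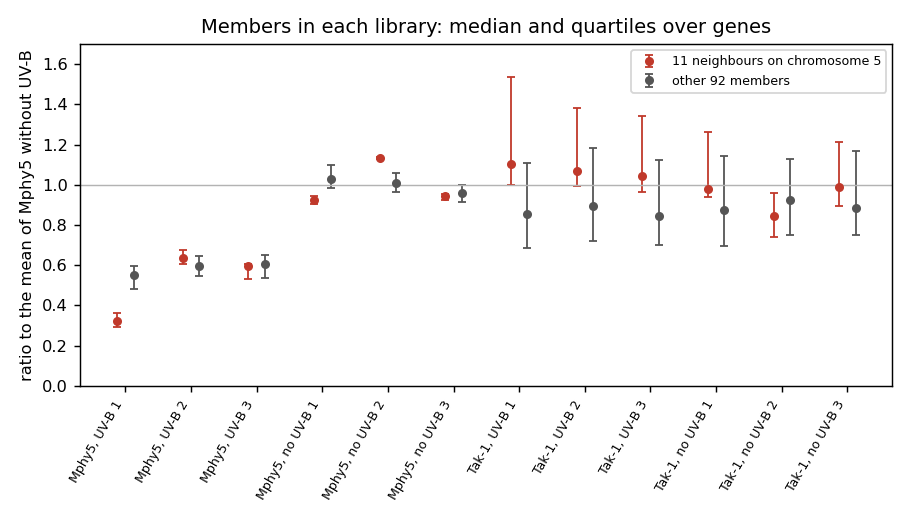
Median and quartiles over genes of the value in each library divided by the mean of Mphy5 without UV-B, for the 11 neighbours on chromosome 5 (red) and the other 92 members (grey). In replicate 1 of Mphy5 with UV-B the block is at 0.321 and the other members at 0.549; in its replicates 2 and 3 both lie between 0.594 and 0.637.

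Apart from the block, 20 members form 10 pairs within 5 genes of each other. MpPOD167 and Mp8g09600 are adjacent on chromosome 8. Mp8g09600 had 2858, 3773 and 3468 normalized reads in Mphy5 with UV-B, against 6429, 6220.3 and 5573 in Mphy5 without UV-B. Mp8g09600 in Tak-1 had 6942, 5874 and 6991 with UV-B, against 7604, 6520.2 and 7295 without UV-B. As in MpPOD167, Mphy5 with UV-B was below all Tak-1 libraries. Adjacent to MpLEA-like33 on chromosome 5, Mp5g22690 had 1040.5, 1176 and 1269.6 normalized reads in Mphy5 with UV-B, against 1848, 1977 and 1996 in Mphy5 without UV-B. Its values in Tak-1 overlapped, at 1503, 1749 and 1565 with UV-B, against 1535, 1748 and 1913 without UV-B. MpPOD23 lies 4 genes from Mp3g06570, which had 3482, 3884 and 3804 normalized reads in Mphy5 with UV-B, against 7173, 7353 and 6829 in Mphy5 without UV-B and a Tak-1 ratio of 1.00. The neighbours of MpAUX1 and MpCYP824A1, Mp1g29350 and Mp5g10780, had means of at most 104 normalized reads and Mphy5 ratios of 0.595 and 0.636. The other 72 members have no member that close.

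Where the mutant started from differed among the members. Without UV-B, Mphy5 was called higher than Tak-1 for 24, where 11.0% of tested genes were, and lower for 16, where 13.9% were. With UV-B it was called lower for 69, where 16.0% were, and higher for 1 (Mp3g01070), where 13.8% were. Nothing is read from these counts, since the rule used the means.

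By group means, 42 members lay between 0.67 and 1.5 times Tak-1 without UV-B and at most 0.67 times with UV-B, as MpAUX1, MpPOD167 and MpKFB01_20 do. A further 31 lay between these limits in both conditions. In 13 the mutant was at least 1.5 times Tak-1 without UV-B and between the limits with UV-B. Mp1g25360 is among these, with 2188, 4016 and 3459 normalized reads in Mphy5 with UV-B, against 5725, 5582 and 4486 in Mphy5 without UV-B. Its values in Tak-1 were 2203, 1991 and 2978 with UV-B, against 2431, 2086 and 2266 without UV-B, so that the lines overlapped with UV-B and not without. Mp5g06660 had 2765, 3425 and 3639 normalized reads in Mphy5 with UV-B, against 5596, 5580.4 and 5499 in Mphy5 without UV-B, and 3325, 3721 and 3657 with UV-B, against 3470.1, 3165 and 3386 without UV-B in Tak-1. For it, too, Mphy5 with UV-B overlapped both Tak-1 groups. A further 3 were at least 1.5 times Tak-1 without UV-B and at most 0.67 times with UV-B, namely MpCupin105, MpLTP-like72 and Mp5g04550.

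In 12 members the mutant was at most 0.67 times Tak-1 in both conditions. The lowest was Mp1g04940, with 182, 164 and 210.2 normalized reads in Mphy5 with UV-B, against 357, 287 and 306 in Mphy5 without UV-B. Mp1g04940 in Tak-1 had 1269, 1390.2 and 1169 with UV-B, against 1011, 1122 and 1164 without UV-B. In it Tak-1 with UV-B was above Tak-1 without, a response that was not called, and Mphy5 was at 0.289 times Tak-1 without UV-B and 0.146 times with UV-B. Mp7g03030 and Mp4g13206 followed, at 0.325 and 0.378 times without UV-B and 0.224 and 0.230 times with UV-B. At the other end, 2 members were at least 1.5 times Tak-1 in both. Mp3g01070 had 1925, 2116 and 2107 normalized reads in Mphy5 with UV-B, against 3491, 3671 and 3187 in Mphy5 without UV-B. Mp3g01070 in Tak-1 had 1051, 1092 and 1049 with UV-B, against 1188, 1144 and 1197 without UV-B. Mphy5 was above Tak-1 throughout. The second, Mp8g18040, had group means of at most 31.7 normalized reads.

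**Figure D5:**
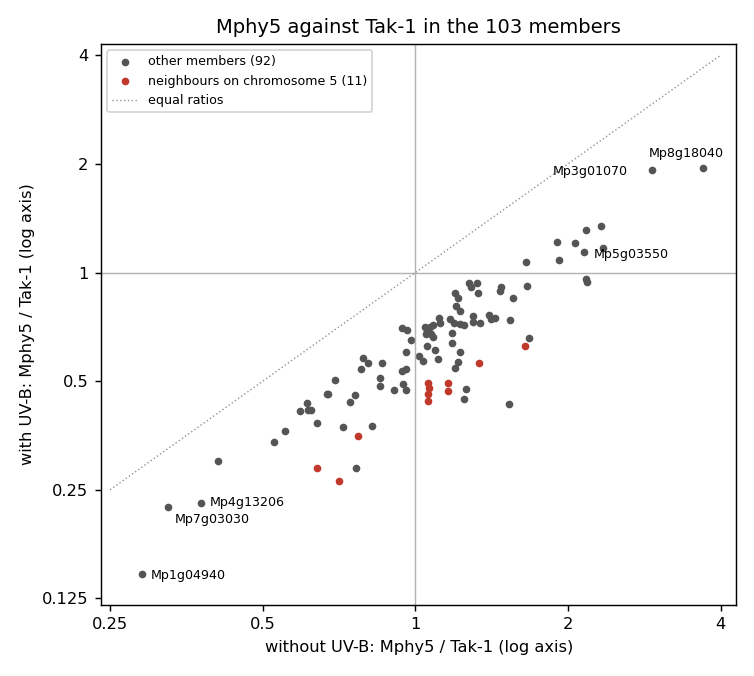
Ratio of Mphy5 to Tak-1 (group mean + 1) with UV-B (vertical) against without UV-B (horizontal) for the 103 members, on log axes. All points lie below the dotted line of equal ratios, which the rule requires. The ratio without UV-B spans 0.289 to 3.686, and with UV-B 93 of the 103 are below 1.

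The limits of the rule divide a continuous range. Just inside the Mphy5 limit of 0.65 were Mp1g19400 at 0.649, Mp1g15580 at 0.648 and Mp4g13200 at 0.643. Just outside were Mp5g22920 at 0.651, MpWRKY14 at 0.652 and Mp4g13262 at 0.652. Just inside the Tak-1 limit of 0.85 were Mp7g01790 at 0.851, MpGH16.42 at 0.853 and MpBHLH15 at 0.853, and just outside were MpPKS/CHS10 at 0.847, MpCYP77A6 at 0.846 and Mp3g14080 at 0.845. Genes that met every other part numbered 1754 beyond the first limit and 442 beyond the second.

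The rule was also applied to 2 of the 3 replicates of each group, and the ratios were read in the replicate left out. The genes chosen in this way were not the same set as the 103, with 64 of 113, 77 of 156 and 88 of 155 being members when replicate 1, 2 or 3 was left out, so these values describe the chosen genes and not the members alone. With replicate 1 left out, 113 genes were chosen at a median Mphy5 ratio of 0.597, and the median in the left-out libraries was 0.590. With replicate 2 left out, 156 genes were chosen at 0.585 and read at 0.667. With replicate 3 left out, 155 genes were chosen at 0.571 and read at 0.664. Each left-out ratio comes from 1 library per group, so the genes are not replicates and nothing is tested here. The left-out Mphy5 ratio was at most 0.65 in 59.3%, 45.5% and 41.9% of the chosen genes. Over 12480 tested genes with a mean of at least 30 it was so in 7.70%, 5.19% and 6.07%. Tak-1 ratios of the chosen genes had left-out medians of 0.929, 0.951 and 0.880, below the 0.962, 0.983 and 0.984 at which they were chosen. Over the 12480 tested genes the left-out medians were 0.998, 0.994 and 0.989 in Mphy5. In Tak-1 they were 1.0, 0.983 and 0.995, so the chosen genes lay below all genes in Tak-1 as well.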

How the data were processed

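RNA of 12 libraries of Marchantia polymorpha gemmalings, Mphy5 and Tak-1 with and without 3 h of UV-B, was read as single ends of 100 bases, per the labels' protocols. The aligner was STAR 2.7.4, per the submitters' processing notes. Genome build, annotation, counting program, strand use and the handling of reads with several matches: not given in the sources used here. Normalized signal per gene, in 1 table, is what the authors deposited. Its values were whole multiples of 1 step per library within 0.02 reads, so reads could be recovered, to 44787979 to 67532310 per library. A gene's reads depend on its length as well as its level.

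The rule for the 103 members was applied to the deposited values with Python 3.11.15. The members and the gene lists were chosen with earlier results of these data known. The test was limma 3.58.1 in R 4.3.3 on log2(value + 1) for 15999 genes that reached a value of 1 in 3 or more libraries. One model held the 4 group means (12 libraries, leaving 8 residual degrees of freedom), with limma's trend and robust options. Alternatives were other pseudocounts, filters and scalings, edgeR 4.0.16 and DESeq2 1.42.0 on the recovered reads, a replicate block, only the groups compared, and each library left out. The fits were also tested on simulated data. Replicate numbers were not taken as pairs. Leaving out a replicate number in all groups at once, and the block without its lowest library, were added after seeing the data.

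Symbols are those of RefSeq's table for MpTak2_v7.1, used for names only, which held 18082 of the 18255 identifiers. Gene order is that of the identifier numbers in the deposited data. Named are all members with a symbol, the members without one that have the lowest ratios or the extremes of a measure, neighbours, genes at the limits of the rule, and up to 3 genes per list by adjusted p. The members of higher counts without a symbol (Mp1g25360, Mp5g06660) were picked after their values were seen. No sequence was used here.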

Additional observations from a re-analysis of the deposited data

Results flagged for a closer look

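Genes outside the rule that were looked at beside the members included 9 whose UV-B responses differed between the lines, by the contrast of the responses in limma (Benjamini-Hochberg adjusted p under 0.05 over 15999 genes, 3 libraries per group). Apart from MpBZIP1, they had been picked from the gene lists by the smallest adjusted p in the Mphy5 response, so their number describes the picks. Over all tested genes 2.54% were called negative and 1.93% positive in this contrast. The differences are Mphy5 minus Tak-1 on the log2 scale. Responses were more positive in Mphy5 for MpBZIP1 (1.21), for the peroxidase gene MpPOD169 (0.94), the polyphenol oxidase gene MpPPO20 (0.85), MpLEA-like18 (1.35) and the transcription factor gene MpBHLH39 (0.49). They were more negative in Mphy5 for the auxin exporter gene MpPIN1 (-0.62), MpLTP-like68 (-0.75), MpBHLH45 (-0.36) and MpBHLH21 (-0.36). Of these, MpPIN1, MpBHLH45 and MpBHLH21 fell in both lines. MpLTP-like68 had 1072 ± 67.8 normalized reads in Mphy5 with UV-B against 1597 ± 117 without, and 1369 ± 97.7 in Tak-1 with UV-B against 1209 ± 95.1 without (SD, n = 3 each), and its Mphy5 ratio of 0.672 lies outside the rule. Groups of 3 libraries are too small for a search for outlying samples.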

How the results depend on the processing

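None of the 103 members changed direction in the Mphy5 response in any of 23 alternatives; 25 lost their call in at least 1, and 8 gained it. Members called in the Tak-1 response, 15 here, were 7 with no filter on low values, 6 with limma without its trend and robust options, and 8 to 21 when 1 library was left out. Members called in the difference, 52 here, were 34 with no filter, 66 with DESeq2 and 53 with edgeR on recovered reads. Over all genes the 714 differences (308 positive, 406 negative) were 395 with no filter and 332 without the trend and robust options. After TMM rescaling there were 362 positive and 348 negative. The rule found 98 to 109 genes under other scalings, added constants or medians, 75 of the 109 with medians being members, 90 to 140 with 1 library left out, and 113 to 156 with a replicate number left out of all groups. The cause of these changes was not tested. With a replicate block, members called were 91 in Mphy5 and 46 in the difference. Deviations of same-numbered libraries from their group means gave 18 correlations between -0.017 and 0.054. In 10 of 18 cases a library correlated best with its own number. Of the 34 members with a mean under 100 normalized reads, 23 were called lower in Mphy5. The 18 with a mean of 100 to 1000 and the 51 with a higher mean were all called lower. The rule asked for such a fall, and the share of all tested genes called at each level was not computed.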

Other observations

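Several gene lists held no member. Over all tested genes 15.9% were called lower and 15.9% higher in Mphy5, and 14.6% lower and 14.6% higher in Tak-1. Of 21 tested jasmonate and oxylipin genes, 7 were called lower and 0 higher in Mphy5, and 8 lower and 0 higher in Tak-1. Of 97 receptor kinase and secreted peptide genes, 31 were called lower and 5 higher in Mphy5, and 26 lower and 6 higher in Tak-1. Of 41 cell division genes, 8 were called lower and 5 higher in Mphy5, and 20 lower and 3 higher in Tak-1; 1 difference of responses was called in each direction among them. Of 83 glycosyltransferase genes other than the UDP-dependent ones, 26 were called lower and 6 higher in Mphy5, and 33 lower and 6 higher in Tak-1. Of 13 WRKY transcription factor genes, 7 were called lower and 2 higher in Mphy5, and 4 lower and 2 higher in Tak-1, with MpWRKY14 just outside the rule.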
